A study of Mus musculus with 73 samples.

Results

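Extraembryonic ectoderm (ExE) from mouse embryos in which Ehmt1 and Ehmt2 had been disrupted together (G9a-Glp) was compared with wild-type ExE. The comparison used the 8 libraries titled G9a-Glp ExE and the 7 libraries titled Bdf1xCast ExE, 15 of the 72 libraries in the deposited table, and the autosomal genes. Each library was the RNA of the ExE of 1 embryo at embryonic day 6.5. The embryos of both groups had a BDF1 mother (an F1 hybrid of C57BL/6 and DBA) and a CAST father, and the zygotes of this cross were made by sperm injection into the oocyte and transferred to CD-1 females as blastocysts. The G9a-Glp zygotes also received Cas9 mRNA and 3 to 4 guide RNAs per gene, so each embryo could carry its own mixture of edited alleles, and the labels do not state an injected control. The G9a-Glp libraries were embryos 1, 2, 7, 8 and 9 (female) and 3, 4 and 10 (male), and the wild-type libraries were embryos 4, 6 and 8 (female) and 1, 2, 3 and 7 (male). The 4 wild-type ExE libraries of the reciprocal cross, CAST mother and BDF1 father from natural mating, were used to tell imprinting from strain effects. Because a BDF1 mother transmits either a C57BL/6 or a DBA haplotype at each locus, embryos of the same group also differ in maternal haplotype.

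G9a (Ehmt2) and GLP (Ehmt1) form a heteromeric enzyme that places mono- and dimethylation on lysine 9 of histone H3, a mark of silent chromatin in euchromatic regions. ExE is the trophoblast tissue that adjoins the epiblast and gives rise to much of the placenta. Imprinted genes are expressed from a single parental allele. At canonical imprinted genes the mark inherited from the gamete is DNA methylation, whereas at noncanonical imprinted genes, such as Sfmbt2 and Gab1, the maternal allele is marked in the oocyte by histone methylation and stays silent mainly in extraembryonic lineages.

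The libraries held 2685835 to 3053690 reads over polymorphisms in wild type and 1829541 to 3637331 in G9a-Glp. ExE identity was checked with marker genes. Elf5, an ExE transcription factor, was at 265 CPM (the gene's reads scaled to the total reads of the library) in wild type and 322 CPM in G9a-Glp, while among visceral endoderm genes Ttr, Apoa1 and Hnf4a each averaged below 1 CPM in both groups (0.29 and 0.259, 0.192 and 0.506, 0.234 and 0.0483 CPM). The 27 genes of that list summed to 239 to 541 CPM in wild type and 301 to 528 CPM in G9a-Glp, and 2 of them, Afp and Cpn1, rose, as given with the other lists. Wild-type embryos 6 and 8 correlated with the other 5 wild-type libraries at r = 0.905 to 0.935 on log2 CPM over the genes tested, against 0.969 to 0.978 among those 5. G9a-Glp embryo 9 correlated with its group at 0.913 to 0.949. G9a-Glp embryo 7 had reads on 18423 genes, against 13751 to 14731 in the other 7. Counts below are given again without these libraries where that changes them by more than 1.5 times.

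The targeted genes were at 19.7 to 63.9 CPM in wild type and 11.5 to 28.0 CPM in G9a-Glp when both were summed. Ehmt2 stood at 23.3, 15.4, 22.7, 21.6, 4.33, 12.2 and 8.22 CPM in wild-type embryos 1, 2, 3, 4, 6, 7 and 8, and at 3.33, 3.28, 2.32, 1.65, 1.86, 6.49, 3.94 and 7.15 CPM in G9a-Glp embryos 1, 2, 3, 4, 7, 8, 9 and 10. All G9a-Glp embryos were below the 6 highest wild-type embryos, and embryos 8 and 10 overlapped wild-type embryo 6. Ehmt1 ranged from 15.3 to 40.6 CPM in wild type, median 34.6, and from 4.40 to 26.1 CPM in G9a-Glp, median 12.5, with the highest values in embryos 7, 8 and 2. The log2 fold change was -2.04 ± 0.36 (SE) for Ehmt2 and -1.04 ± 0.29 for Ehmt1 (edgeR quasi-likelihood test, adjusted p 0.00079 and 0.021). Cas9 cuts need not remove the transcript, so remaining RNA does not measure remaining protein.

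The few reads left on the targets came unequally from the parental alleles in some embryos and evenly in others. Of the Ehmt1 reads of embryo 9, 37 of 40 were maternal (92.5%, exact 95% interval 79.6 to 98.4%), whereas 6 of 25 were maternal in embryo 3 (24.0%, 9.36 to 45.1%). Embryos 1, 2 and 7 were at 54.3, 44.7 and 61.4% for Ehmt1. The intervals of embryos 1 and 7 took in the whole wild-type range, and that of embryo 2 (28.6 to 61.7%) only its lower part. For Ehmt2 in embryo 10, 2 of 26 reads were maternal (7.69%, 0.946 to 25.1%), while embryos 4, 7, 8 and 9 were at 50, 60, 50 and 46.2% on 4 to 14 reads. In wild type the maternal share of Ehmt1 reads lay between 55.7% and 67.4%. These intervals cover counting error only. The maternal share was also summed over genes before and after each target on chromosomes 2 and 17. Before and after Ehmt1 it was 52.8 to 54.4% and 55.2 to 56.5% in G9a-Glp, beside 52.0 to 53.5% and 55.5 to 56.3% in wild type. Before and after Ehmt2 it was 55.3 to 58.4% and 55.8 to 58.2%, beside 54.6 to 56.9% and 57.0 to 58.3%. The G9a-Glp range thus reached past the wild-type range at the upper end before Ehmt1 and before Ehmt2. After Ehmt1 it did so at both ends, and after Ehmt2 at the lower end.

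Of 8931 autosomal genes tested for expression, 1319 changed (14.8%): 762 rose (8.53%) and 557 fell (6.24%) in G9a-Glp at an adjusted p below 0.05. In 206 of the risen genes (2.31% of those tested) every G9a-Glp embryo lay above every wild-type embryo, and in 88 of the fallen genes (0.985%) every one lay below. Regardless of the test, the groups did not overlap upward in 214 genes (2.4%). The rises were the larger changes: 116 genes rose and 17 fell by at least 4-fold. Without wild-type embryos 6 and 8 and G9a-Glp embryos 7 and 9, 1148 rose and 968 fell. In bulk RNA, fewer cells of a type and less RNA per cell cannot be told apart.

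The 10 genes named for the largest rises had no or almost no reads in wild type and were expressed in all 8 G9a-Glp embryos. They were chosen for groups that did not overlap and a G9a-Glp mean of at least 5 CPM, so this pattern follows largely from the choice. Those with no wild-type read passed the filter on low counts only through G9a-Glp. C8b and Hc encode complement components C8 beta and C5 that are normally made in liver. C8b (chromosome 4, 104766317 to 104804548, mm10) had 1 read in the 7 wild-type libraries together, and 19.6, 26.8, 35.5, 23.5, 26.1, 29.2, 21.8 and 14.3 CPM in G9a-Glp embryos 1, 2, 3, 4, 7, 8, 9 and 10. The ratio of its group means was 516, with a counting interval of 86.7 to 19078 set by that 1 read. Hc (chromosome 2, 34983329 to 35067034) had no read in wild type and 6.60 to 18.3 CPM in G9a-Glp, at least 71.6-fold higher (floor of 3 reads over the wild-type group, 0.148 CPM). Gm39794, which overlaps Hc, was at least 64.6-fold higher, and the 2 can share reads. The adjusted p was 1.3e-10 for C8b and 9.7e-07 for Hc (edgeR).

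Of the other top genes, 5 also had no read in wild type. Gm16499 was at least 155-fold higher, Wdr20rt at least 138-fold, Gm32184 at least 92.6-fold, 1700019E08Rik at least 78.6-fold and 4933404K13Rik at least 74.5-fold (edgeR adjusted p 9.1e-06 or lower for each). The 10 are completed by Wfdc15a, a protease inhibitor family gene, which rose from 0.251 ± 0.53 to 65.2 ± 37 CPM, and by 4930591A17Rik, which rose from 0.145 ± 0.18 to 24.7 ± 10 CPM (SD, n = 7 and 8; edgeR adjusted p 2.4e-08 and 4.7e-09). In all, 7 of the risen genes had no read in any wild-type library and 35 had a wild-type mean below 1 CPM.

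The risen genes were in most cases read from both alleles. Among the 206 without overlap, the median maternal share in G9a-Glp was 54.2% (quartiles 46.2 and 63.9%), and it lay between 20 and 80% for 171 (83.0%). Over all genes tested for allelic ratio, the wild-type median was 53.9% and 94.0% lay in that range. Exceptions included C8b, at 17.8% ± 8.6 maternal (SD, n = 8), 4933404K13Rik at 94.8% ± 5.0, and Gm32184, with no maternal read. In a single cross direction, a maternal allele cannot be told apart from a BDF1 allele for such genes.

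**Figure D1:**
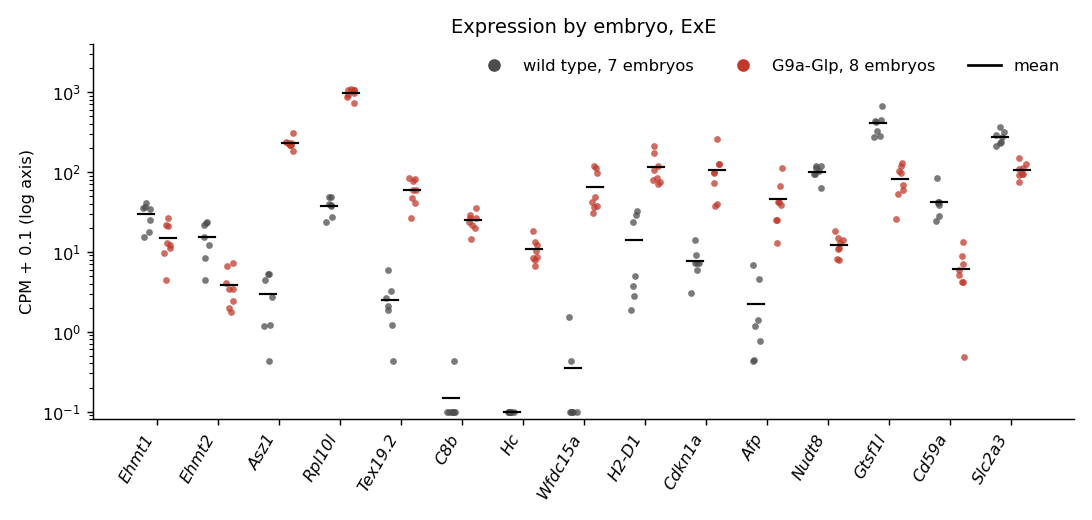
Expression of targets and of genes that rose or fell, each point an embryo (CPM + 0.1 on a log axis) and each bar a group mean, for 7 wild-type and 8 G9a-Glp embryos. Asz1 lies between 180 and 308 CPM in all G9a-Glp embryos and at most at 5.24 CPM in wild type, while the Ehmt1 and Ehmt2 groups overlap.

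Among 58 autosomal germline genes, 30 passed the filter on low counts, 13 of these rose, 4 fell and 13 did not pass the test, where 8.53% of all tested genes rose and 6.24% fell. Their median log2 fold change was 0.85 beside 0.01 over all genes. The filter took both groups together, so a gene near silence in wild type entered only if high in G9a-Glp, and could hardly fall. That rule may raise the share that rose and the median, and its extent was not measured. Asz1, a piRNA pathway protein of germ cell mitochondria, stood at 5.24, 4.30, 5.15, 1.12, 0.333, 2.63 and 1.07 CPM in wild type and at 220, 216, 240, 233, 308, 218, 230 and 180 CPM in G9a-Glp (embryos in the order above). The lowest G9a-Glp value lay far above the highest wild-type value, also in embryos 8 and 10, in which Ehmt2 RNA overlapped the wild type. Its log2 fold change was 6.28 ± 0.31 (edgeR adjusted p 3.0e-11).

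Rpl10l, a ribosomal protein gene of the testis, rose from 37.6 ± 9.4 to 969 ± 125 CPM (log2 4.62 ± 0.16, edgeR adjusted p 8.2e-14). It is a near copy of an X-linked ribosomal protein gene, so part of its reads may belong to that gene. Tex19.2 rose from 2.39 ± 1.8 to 59.2 ± 20 CPM and Cyct, the cytochrome c of sperm, from 5.68 ± 3.4 to 105 ± 69 CPM. Tuba3a and Tuba3b, alpha-tubulins of testis that are near copies of each other, rose by 2.31 and 3.42 on the log2 scale. The other germ cell genes that rose were Hormad2, Tex101, Piwil2, Rnf17, Fkbp6, Syce1 and Tex19.1, named here to complete the count. Not every germline gene moved: Ddx4 was at 6.40 and 10.2 CPM (adjusted p 0.26), Sycp3 at 2.75 and 5.12 CPM (0.22), and Dazl and Stra8 did not reach the filter.

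The 4 that fell were expressed in wild-type ExE. Gtsf1l, a relative of a piRNA pathway gene, fell from 408 ± 134 to 81.9 ± 36 CPM, with 25.8 to 129 CPM in G9a-Glp below 274 to 661 CPM in wild type. Slc2a3, a glucose transporter, fell from 275 ± 53 to 106 ± 24 CPM (log2 -1.42 ± 0.14), and Tex15 and Dnmt3l fell by 0.89 and 0.62. Their adjusted p were 1.3e-05, 8.5e-07, 0.048 and 0.028 (edgeR). Of 11 tested genes of the PRC1.6 and E2F6 list, which repress germline genes, Yaf2 rose (log2 0.71) and 10 did not pass the test, a share near that over all genes.

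Among targets of p53, the transcription factor activated by DNA damage and other stress, 11 of 19 tested genes rose, none fell and 8 did not pass, beside 8.53% higher and 6.24% lower over all genes (median log2 0.76, beside 0.01 over all genes). No p53 target fell under DESeq2 either. Only Sesn1 and Rps27l had negative log2 values, and their unadjusted edgeR p were 0.20 and 0.64, so 0 fell at an unadjusted p below 0.05. Cdkn1a, the inhibitor p21 of cyclin-dependent kinases, stood at 2.96 to 14 CPM in wild type and at 72.8, 95.7, 262, 124, 37.7, 124, 39.4 and 101 CPM in G9a-Glp embryos 1, 2, 3, 4, 7, 8, 9 and 10. The groups did not overlap, and embryo 3 was the highest while embryos 7 and 9 were the lowest of the knockouts. Its log2 fold change was 3.74 ± 0.39 (edgeR adjusted p 1.3e-06). Sesn2, a stress-induced regulator of mTORC1, rose by 2.55 (18.8 against 3.03 CPM), Btg2 by 1.68, Ccng1 by 1.44, Trp53inp1 by 1.44, Ei24 by 0.98, Tnfrsf10b by 0.93 and the apoptosis gene Bax by 0.73. The remaining 3 were Gtse1, Zmat3 and Polk. Trp53 itself was at 64.3 and 81.9 CPM (adjusted p 0.23). Whether editing with Cas9 moves these genes cannot be told apart from the loss of G9a and GLP in these groups.

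Cell identity lists were read against the 14.8% of all tested genes that changed. Of 25 tested ExE and trophoblast stem cell genes, Ly6a rose (log2 1.19), Fgfr2, the receptor that maintains trophoblast stem cells, and Ddah1 fell (-0.56 and -0.42), and 22 did not pass. The calls of Fgfr2 and Ddah1 were lost in 9 of 25 alternatives each. Among 12 tested genes of trophoblast differentiation, Prdm1, a repressor needed by trophoblast giant cells, rose from 0.804 ± 1.2 to 11.1 ± 3.3 CPM, Cdkn1c from 40.2 ± 13 to 95.5 ± 51 CPM and Peg10 from 17.3 ± 3.2 to 36.6 ± 10 CPM (edgeR adjusted p 9.4e-05, 0.0091 and 0.0010). Flt1 was the 4th, at an edgeR adjusted p of 0.0499 that 15 of 25 alternatives lost. Placental hormone genes such as Prl3d1 and Prl3b1 had no read.

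Of 9 tested epiblast genes 4 changed, beside 14.8% over all genes. Utf1 rose from 191 ± 72 to 455 ± 108 CPM and Dppa5a from 21.6 ± 13 to 50.6 ± 18 CPM, while Dnmt3b and Epcam fell (log2 -0.75 and -0.34), Epcam not in 10 of 25 alternatives. The 20 epiblast markers summed to 2023 to 2600 CPM in wild type and 1848 to 2377 CPM in G9a-Glp. Of 5 tested visceral endoderm genes, Afp, the fetal serum protein, rose from 2.14 ± 2.5 to 45.5 ± 31 CPM and Cpn1 from 7.55 ± 3.3 to 24.7 ± 9.3 CPM, with no overlap for either (edgeR adjusted p 2.4e-05 and 0.00036). Genes of decidua and maternal blood summed to 3.93 to 12.2 CPM in wild type and 6.87 to 22.8 CPM in G9a-Glp. The part of both lists in these results was not tested. Of 7 tested parietal endoderm genes, the basement membrane genes Lamb1 and Col4a2 fell, Sparc rose and 4 did not pass. The Col4a2 call was lost in 6 of 25 alternatives.

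Of 18 tested genes of H3K9 methylation and its readers, Trim28, the corepressor of zinc finger proteins, and Cbx1 fell (log2 -0.80 and -0.58) and 16 did not pass. Over all tested genes 6.24% fell and 14.8% changed, the shares beside which the lists of this paragraph are read. Trim28 was highest in wild-type embryo 6 at 989 CPM, and the Cbx1 call was lost in 11 of 25 alternatives. Of 16 tested DNA methylation genes 6 changed, beside 14.8% over all genes: Dnmt3b, Dnmt3l and Mbd1 fell, and Mbd3, Gadd45g and Dnmt3a rose. The calls of Dnmt3l, Mbd1, Gadd45g and Dnmt3a were lost in 4, 11, 5 and 14 of 25 alternatives. Dnmt3b stood at 752 ± 179 CPM in wild type and 468 ± 118 CPM in G9a-Glp (edgeR adjusted p 0.0054). Of 8 tested interferon-response genes 1 fell (Ifi35), of 21 proliferation genes 1 fell (Mcm3), of 3 primitive streak and mesoderm genes 1 fell (Kdr), and Cwc22, the only tested gene of the 25 2-cell genes in the table, did not pass (edgeR adjusted p 0.53, 49.3 and 46.0 CPM).

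The MHC class I genes H2-D1 and H2-K1 rose, and 2 of the 4 tested did not pass, where 8.53% of all tested genes rose. H2-D1 stood at 4.91, 31.9, 28.5, 23.5, 2.67, 3.62 and 1.79 CPM in wild type and at 78.3, 172, 209, 105, 84.6, 74.1, 71.0 and 118 CPM in G9a-Glp (log2 3.00 ± 0.49, edgeR adjusted p 0.00029). Its wild-type reads fell into a pattern by embryo: 76 of 89, 70 of 83 and 54 of 63 were maternal in embryos 2, 3 and 4, against 7 of 15, 0 of 8, 3 of 11 and 0 of 5 in embryos 1, 6, 7 and 8. In all 8 G9a-Glp embryos most reads were maternal, from 170 of 212 to 506 of 542. Paternal reads numbered 5 to 13 in wild type and 20 to 42 in G9a-Glp. Class I genes are near copies of each other and their maternal haplotype differs between embryos, so reads may be misassigned.

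The 10 genes named for the largest falls were chosen by the same rule, with at least 5 CPM in wild type, so their expression in wild-type ExE follows from the choice. Nudt8, a mitochondrial nudix hydrolase (chromosome 19, 4000580 to 4002102), stood at 94.3, 111, 119, 93.5, 62.7, 103 and 117 CPM in wild type and at 7.83 to 17.9 CPM in G9a-Glp, 8.23-fold lower (log2 -3.10 ± 0.20, edgeR adjusted p 2.1e-09). Cd59a, an inhibitor of the complement membrane attack complex, fell from 42.5 ± 19 to 6.07 ± 3.8 CPM. Hmgn3, a nucleosome-binding protein, fell by 2.92, Ttpa, the vitamin E transfer protein, by 2.72, Acbd7 by 2.48, and Ghr, the growth hormone receptor, by 2.43 on the log2 scale. 2210011C24Rik (log2 -3.02), Gmeb2 (-2.29), Gm8493 (-2.27) and Gtsf1l complete the 10.

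Promoter sequence was compared as a description, using the RefSeq windows of GRCm38.p6 from 250 bases before to 50 bases after the start, which matched 6793 of the 8931 tested genes by symbol. The E-box CACGTG (both strands) was present in 12.4% of windows of risen genes, 11% of fallen and of all tested genes, and the E2F motif TTCCCGC or its reverse complement in 7.33%, 9.33% and 9.13%. Among genes that rose at least 4-fold, 3 of 88 windows (3.41%) held the E-box and 8 (9.09%) the E2F motif. Among the 11 risen germline genes with a window, 1 held the E-box and 3 the E2F motif. In all 27025 windows of the table the shares were 7.24% and 4.66%. The count of CpG dinucleotides in the 250 bases before the start, chosen as a measure after the values were seen, had a median of 7 in genes that rose at least 4-fold (88 windows), 14 in all risen genes, 16 in fallen genes and 17 in all tested genes. Among all windows in the table the median was 6. The promoters of 3 genes show the range, each 250 bases before the start, 5′ to 3′ on the gene's strand with CpG in capitals: Asz1 with 15 (chr6:18109062-18109311, minus strand), C8b with 4 (chr4:104766067-104766316, plus strand) and the paternally expressed Sfmbt2 with 8 (chr2:10370201-10370450, plus strand).
Asz1: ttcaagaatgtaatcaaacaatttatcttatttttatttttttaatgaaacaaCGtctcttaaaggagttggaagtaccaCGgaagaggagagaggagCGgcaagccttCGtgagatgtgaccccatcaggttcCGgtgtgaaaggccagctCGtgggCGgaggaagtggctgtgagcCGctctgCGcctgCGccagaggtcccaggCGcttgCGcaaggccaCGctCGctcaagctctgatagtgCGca
C8b: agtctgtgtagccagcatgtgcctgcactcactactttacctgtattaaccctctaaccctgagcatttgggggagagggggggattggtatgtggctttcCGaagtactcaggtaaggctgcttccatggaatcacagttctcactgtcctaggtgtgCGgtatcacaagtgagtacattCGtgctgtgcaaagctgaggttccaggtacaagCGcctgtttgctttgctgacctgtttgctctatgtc
Sfmbt2: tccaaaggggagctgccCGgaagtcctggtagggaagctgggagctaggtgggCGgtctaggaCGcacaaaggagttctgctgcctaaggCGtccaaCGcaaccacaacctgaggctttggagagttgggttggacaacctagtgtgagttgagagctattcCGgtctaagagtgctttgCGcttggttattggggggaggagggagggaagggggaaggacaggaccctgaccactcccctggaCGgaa

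Parental expression was measured next. In wild-type ExE, 43 of 8654 tested autosomal genes (0.497%) were called imprinted, with a maternal share of at least 70% or at most 30% in both cross directions and a parental effect at an edgeR adjusted p below 0.05. Of these, 30 were paternally and 13 maternally expressed, and 31 were on the lists of imprinted genes, all with the listed parent. The maternal to paternal ratio of reads was then compared between G9a-Glp and wild type. It changed for 96 of 8731 genes (1.1%), 54 toward the maternal allele (0.618%) and 42 toward the paternal (0.481%). The groups did not overlap in 39 of the 96 (0.447% of genes tested), and in 72 genes (0.825%) regardless of the test. Without wild-type embryo 4 the ratio changed for 61 genes.

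Of the 43 imprinted genes 20 were among the 96, and in all 20 the share moved toward equal expression of the 2 alleles. The 43 were chosen for a share far from equal in wild type, partly in the same libraries. A share near its limit can hardly move farther from equal, so the common direction was largely set by that choice. A silent allele with few wild-type reads could likewise hardly fall. The level of the allele silent in wild type rose at an edgeR adjusted p below 0.05 in 18 of the 20, whereas the active allele fell in 1 (Peg3) and rose in 1 (Slc38a4). Over all genes, the maternal allele alone rose in 4.92% and the paternal allele in 5.27%. Of the 20, 10 rose in total expression.

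All 7 tested noncanonical imprinted genes changed, and their median share was far from the wild type in every embryo, although Slc38a4 was at 3.01% in embryo 3. Otx2os1, the 8th on the list, had 0.102 and 0.265 CPM and was not tested. The median share of reads from their silent maternal allele was 2.0, 0.199, 2.70, 2.04, 0.977, 5.26 and 4.35% in wild-type embryos 1, 2, 3, 4, 6, 7 and 8. It was 52.8, 45.9, 48.6, 47.9, 44.8, 45.7, 49.3 and 43.5% in G9a-Glp embryos 1, 2, 3, 4, 7, 8, 9 and 10. The difference of 44.8 percentage points had an exact two-sided permutation p of 0.000311, the smallest that 7 against 8 embryos can give (adjusted over 2 lists 0.000622). No G9a-Glp embryo lay near the wild-type range.

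Sfmbt2, a Polycomb-related gene needed for trophoblast (chromosome 2, 10370437 to 10595253), had recovered maternal reads in 1 of the 7 wild-type libraries. That was embryo 2 (0.199% of its reads), and the mean share was 0.0285% ± 0.075 (SD, n = 7). With a mean of 1275 reads, wild-type libraries can reach the limit of the allelic score described below, where a rounded ratio sets the reads. Some maternal reads may thus be missed, and the wild-type share and maternal level may be too low. In G9a-Glp the maternal share was 28.1, 34.3, 48.6, 47.9, 44.8, 42.3, 51.8 and 30.2%, 41.0% ± 9.0 (n = 8). The maternal allele went from 0.102 ± 0.27 to 399 ± 154 CPM, while the paternal allele stood at 438 ± 88 and 551 ± 110 CPM, a difference that did not pass the test (edgeR adjusted p 0.22). Total Sfmbt2 rose from 438 ± 88 to 950 ± 231 CPM (log2 1.06 ± 0.15, edgeR adjusted p 7.2e-05). An intron of Sfmbt2 holds a large cluster of microRNA genes.

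Gab1, an adaptor of growth factor receptors (chromosome 8, 80764431 to 80880519), went from 5.91% ± 2.9 to 56.1% ± 3.3 maternal, with 50.6 to 62.0% in the 8 embryos. Its maternal allele rose from 13.2 ± 9.3 to 223 ± 32 CPM beside a paternal allele at 197 ± 71 and 176 ± 40 CPM. Smoc1, a secreted modulator of BMP signalling (chromosome 12, 81026808 to 81186414), went from 2.65% ± 2.2 to 55.4% ± 8.1, and Jade1, a subunit of a histone acetyltransferase complex (chromosome 3, 41555734 to 41616864), from 5.44% ± 1.7 to 46.6% ± 3.5. Total expression of Gab1, Smoc1 and Jade1 rose by 0.86, 1.2 and 0.68 on the log2 scale, and none of their paternal alleles passed the test (edgeR adjusted p 0.42, 0.89 and 0.59).

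Slc38a4, an amino acid transporter of placenta (chromosome 15, 96994823 to 97055956), was the gene of this group that varied most between embryos. Its maternal share was 39.8, 20.8, 3.01, 24.2, 29.8, 41.5, 38.5 and 41.9% in G9a-Glp embryos 1, 2, 3, 4, 7, 8, 9 and 10, and 0 to 1.03% in wild type. Embryo 3 stayed near the wild type, while the same embryo was at 48.6% for Sfmbt2. The paternal allele also rose, from 452 ± 61 to 645 ± 110 CPM (edgeR adjusted p 0.018), and total expression rose by 0.99 on the log2 scale. Gm32885, a predicted gene beside it (97157117 to 97167278), went from 2.71% ± 1.9 to 41.8% ± 2.5 with 39.1 to 45.3% in all 8 embryos. Platr20 went from 5.06% ± 6.7 to 51.9% ± 11. The total of neither passed the test (edgeR adjusted p 0.44 and 0.41). The paternal allele stood at 2316 and 1717 CPM for Gm32885 and at 12.8 and 7.99 CPM for Platr20, in wild type and G9a-Glp (edgeR adjusted p 0.10 and 0.057).

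**Figure D2:**
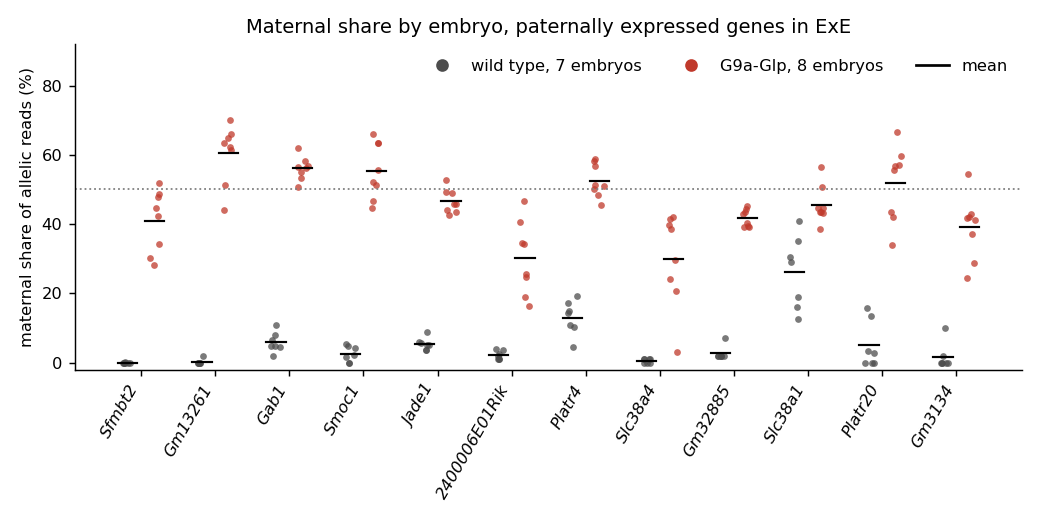
Maternal share of allelic reads for 12 genes that were paternally expressed in wild type, each point an embryo and each bar a group mean, with the dotted line at 50%. For Sfmbt2 the 8 G9a-Glp embryos lie between 28.1 and 51.8%. The 7 wild-type embryos lie at or below 0.199% as recovered, where rounding can hide some maternal reads. For Slc38a4, embryo 3 lies at 3.01%.

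**Figure D3:**
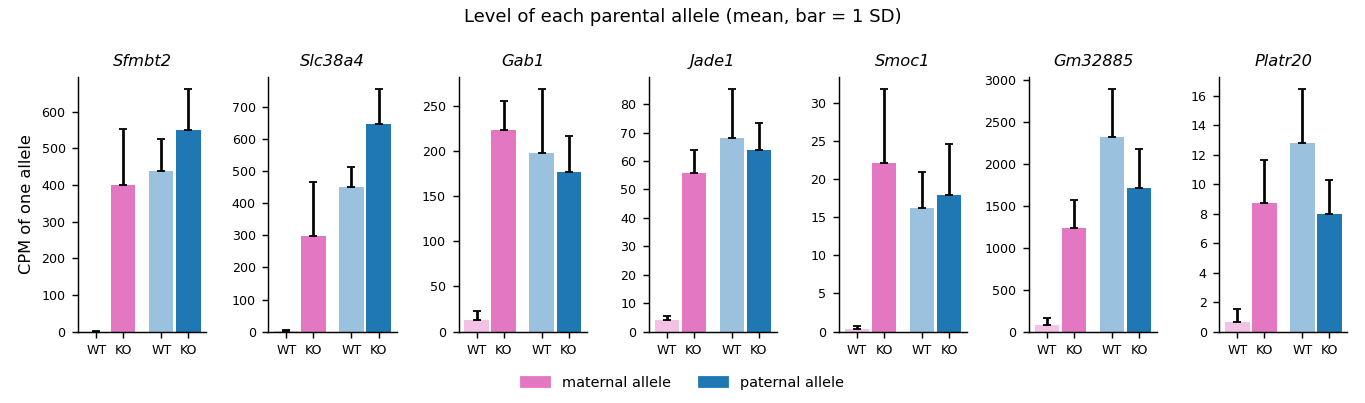
Level of the maternal and the paternal allele (CPM of that allele, mean with an error bar of 1 SD) in 7 wild-type (WT, pale) and 8 G9a-Glp (KO, dark) embryos for the 7 noncanonical genes. The maternal allele of Gab1 stands at 13.2 CPM in wild type and 223 CPM in G9a-Glp, and the paternal allele at 197 and 176 CPM.

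Genes beside the noncanonical loci moved with them. Next to Sfmbt2, Gm13261 (chromosome 2, 10327340 to 10365161) went from 0.275% ± 0.73 to 60.4% ± 8.5 maternal. Beside Jade1 on chromosome 3, Gm40040, Platr4 and 2400006E01Rik went from 9.80% ± 12, 13% ± 4.9 and 2.15% ± 1.2 to 66.9% ± 8.9, 52.5% ± 4.9 and 30.2% ± 11. Slc38a1, on the other side of Slc38a4 at 96571418 to 96642913, went from 26.1% ± 11 to 45.7% ± 5.5. The overlapping Gm3134 and LOC108167542, beside Sall1 on chromosome 8 and on neither list, went from 1.71% ± 3.7 and 1.73% ± 3.7 to 39.1% ± 9.2 and 39.4% ± 10. They share reads and were counted as 2 genes. All 7 had an edgeR adjusted p of 0.0076 or lower for the change of ratio. Brachyury (T), a mesoderm gene on chromosome 17 that was 76.9% ± 8.8 maternal in wild type and 55.1% ± 10 in G9a-Glp (edgeR adjusted p 0.02), completed the imprinted genes that changed and are on neither list. Its call was lost in 4 of 26 alternatives.

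Canonical imprinted genes changed less and less evenly, apart from 2 that lie beside noncanonical loci. Of 24 listed as canonical and imprinted in wild type, 7 changed. Of these, Gm13261 and Platr4 carry the canonical label of the list only. They lie beside Sfmbt2 and Jade1 and moved with them, without overlap of the groups. The other 5 were Peg3, Fkbp6, Ascl2, Tssc4 and Phlda2. The median below includes Gm13261 and Platr4. The median silent-allele share over the canonical genes was 0.0756 to 2.0% in wild type and 14.4, 7.05, 1.31, 5.10, 8.67, 7.78, 4.6 and 2.97% in G9a-Glp embryos 1, 2, 3, 4, 7, 8, 9 and 10. Of the 8, 7 lay above every wild-type embryo and embryo 3 did not, and the means differed by 5.77 percentage points (exact two-sided permutation p 0.000622, adjusted over 2 lists 0.000622).

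Peg3, a paternally expressed zinc finger gene, had a maternal share of 0 to 9.82% in wild type and 23.3, 8.09, 13.2, 15.6, 32.4, 11.3, 1.82 and 8.67% in G9a-Glp, with a paternal allele at 224 CPM in wild type and 124 CPM in G9a-Glp (edgeR adjusted p 0.0093 for the ratio). Fkbp6, a meiotic gene, went from 4.99% ± 3.5 to 20.6% ± 13 maternal. On distal chromosome 7, where the paternal alleles of a placental cluster are silent, the maternal share of Ascl2, a trophoblast transcription factor, went from 99.6% ± 0.88 to 93.3% ± 5.0, that of Tssc4 from 95.8% ± 3.9 to 83.7% ± 7.7 and that of Phlda2, a growth-limiting placental gene, from 97.7% ± 2.2 to 90.3% ± 7.7. All 5 overlapped the wild type in some embryos, and the calls of Peg3, Fkbp6, Tssc4 and Phlda2 were lost in 2, 3, 7 and 9 of 26 alternatives.

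Some other imprinted genes stayed near their wild-type share, while others varied between embryos without passing the test. The maternal share of Snhg14 was 0% in all libraries with at least 10 reads, that of Snrpn-Snurf was 0.475% ± 0.80 and 0.264% ± 0.50, that of Cdkn1c 99.5% ± 0.90 and 99.0% ± 0.86 and that of Grb10 98.4% ± 1.8 and 99.2% ± 1.1. H19 was at 95 to 100% in wild type and at 77.1, 98, 99, 68.6, 95, 86, 98 and 75% in G9a-Glp, and did not pass the test (edgeR adjusted p 0.054). Mcts2 was at 35.9% in embryo 7 and at 0 to 7.21% in the other 7. Total Mest fell and total Peg10 rose (log2 -1.11 and 1.01) without a change of ratio past the threshold (adjusted p 1.0 and 0.25).

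**Figure D4:**
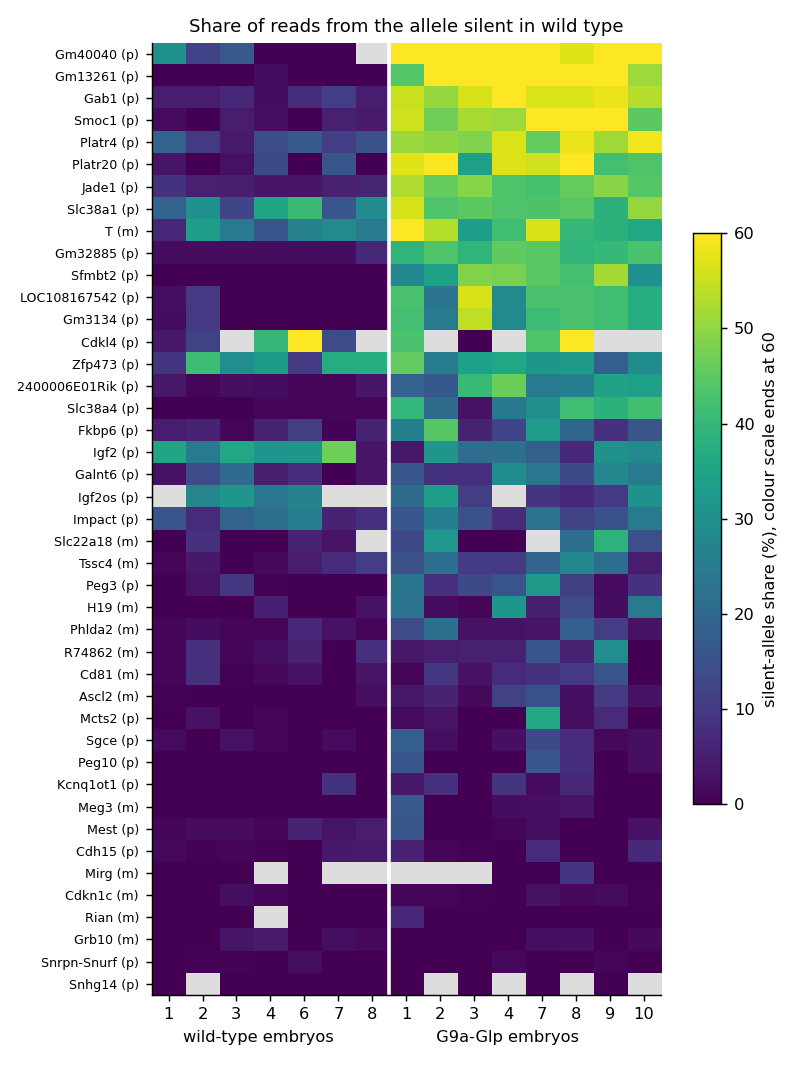
Share of reads from the allele that is silent in wild type, for the 43 imprinted genes (rows, m maternally and p paternally expressed, ordered by their mean in G9a-Glp) in each wild-type and G9a-Glp embryo (columns); grey has fewer than 10 reads and the colour scale ends at 60%. The rows of noncanonical genes are high in all 8 G9a-Glp columns, with Slc38a4 at 3.01% in embryo 3, and the lower rows differ between embryos.

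The silent-allele share was also set against remaining Ehmt RNA. Over the 8 G9a-Glp embryos, the noncanonical share and Ehmt2 CPM had Pearson r = -0.39 (exact permutation p 0.32) and Spearman rho = -0.19 (0.66), and with Ehmt1 r = -0.21 (0.62) and rho = -0.12 (0.79). The canonical share had r = -0.11 (0.86) and rho = -0.12 (0.79) with Ehmt2. With Ehmt1 it had r = 0.47 (exact permutation p 0.26) and rho = 0.81 (0.022, adjusted 0.087 over the 4 relations). Adjusted over the 4 relations, the Pearson p were 0.647 to 0.860, and without the 2 embryos farthest from the Ehmt1 median the canonical r was 0.42 (exact permutation p 0.36). With the sum of Ehmt1 and Ehmt2, the canonical share had r = 0.45 (exact permutation p 0.29) and rho = 0.81 (0.022), and r = 0.78 (0.015) when the mean over genes replaced the median. These were not among the 4 adjusted relations.

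The 76 changes of ratio outside the imprinted genes were smaller, with a median change of 9.74 percentage points in maternal share and 13 above 20 points. Several lay near each other. On chromosome 4, Gm13247 (146502000 to 146539395) and the overlapping 1700095A21Rik went from 11% ± 12 and 10.7% ± 11 to 65.2% ± 7.5 and 64.6% ± 7.8 maternal, and Gm13154 from 41.8% ± 20 to 78.9% ± 4.2. Gm13247 was read from the CAST allele in both wild-type crosses, since its maternal share was 82.6% in the reciprocal cross, where CAST is the mother. The allele that rose was thus the BDF1 allele (1.99 to 42.4 CPM). Gm13157, also on chromosome 4, was the reverse: 94.3% ± 7.3 maternal in wild type, 48.0% ± 18 in G9a-Glp, and 4.39% maternal in the reciprocal cross, so that the CAST allele rose (0.791 to 10.6 CPM). On chromosome 13, 2810408B13Rik went from 26.1% ± 15 to 56.7% ± 5.9 and LOC108167344 from 47.4% ± 3.7 to 24.8% ± 3.1.

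Other genes whose groups did not overlap included Hopx, a homeodomain protein without DNA binding, at 23.2% ± 3.3 and 43.9% ± 3.7 maternal (log2 ratio 1.38 ± 0.11, edgeR adjusted p 5.4e-09), and 2410003L11Rik, at 41.0% ± 12 and 84.6% ± 6.1. In the reciprocal wild-type cross Hopx was 73.7% maternal and 2410003L11Rik 1.55%, so the wild-type bias of Hopx went with the CAST allele. Evc, a cilium gene of Hedgehog signalling, went from 47.5% ± 6.1 (n = 4) to 13.6% ± 6.9 (n = 8), with a paternal allele that rose from 2.10 to 20.6 CPM (edgeR adjusted p 7.9e-06). Nol7, a nucleolar protein gene, went from 53.3% ± 1.4 to 39.5% ± 5.3 with a maternal allele that fell from 225 to 107 CPM (edgeR adjusted p 0.00062). Txnrd1, 9430060I03Rik, Gm14124 and Plet1os also moved toward the paternal allele, which in this cross is also the CAST allele. In the reciprocal wild-type cross they were at 27.6, 42.7, 11.7 and 34.1% maternal. Ttc39c and E130012A19Rik moved toward the maternal allele. The calls of 9430060I03Rik and 2810408B13Rik were lost in 11 and 4 of 25 alternatives, and those of E130012A19Rik and Gm14124 in 3 and 1 of 26. Of the 76, 8 favoured CAST and 13 favoured BDF1 at 70% or more in both wild-type crosses.

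The same disruption was measured in epiblast of 6 embryos against 7 wild-type epiblasts, which allowed the effects in the 2 tissues to be compared. By their titles, most of these epiblasts came from embryos also used for ExE. The tests of the difference between tissues had no term for the embryo. Of the 762 genes that rose in ExE, 610 were tested in epiblast and 399 also rose there. These were 52.4% of the risen ExE genes and 21.8% of the 1828 epiblast calls, themselves 19.8% of 9251 genes tested there. Of the 557 that fell, 520 were tested in epiblast and 233 also fell there. These were 41.8% of the fallen ExE genes and 16.7% of 1392 epiblast calls, themselves 15.0% of those tested. The shares of ExE genes count those not tested in epiblast as not shared. The test of the difference between tissues passed for 719 of 10532 genes (6.83%), 316 more positive (3.00%) and 403 more negative (3.83%) in ExE. Among them were 113 of the risen ExE genes, of which 77 were more positive in ExE. They also held 56 of the fallen ExE genes, of which 49 were more negative in ExE. Nudt8 fell in ExE and was at 29.1 and 51.7 CPM in epiblast, a difference of -3.75 between the log2 effects (edgeR adjusted p 2.7e-07), and Gtsf1l differed by -2.89 (0.00017). Hc, which rose in ExE, was at 0.604 and 0.752 CPM in epiblast (difference 6.94, edgeR adjusted p 0.0067).

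Of the p53 targets, Cdkn1a, Btg2 and Ccng1 rose more in ExE (differences 2.59, 1.42 and 1.14, edgeR adjusted p 0.0066, 0.010 and 0.018) and Bax less (-0.99, 0.026). Dnmt3l fell in ExE and rose in epiblast, by a difference of -1.94 (edgeR adjusted p 0.0051). Germline genes called in ExE were in part shared: Asz1 rose by 5.75 and Rpl10l by 5.28 on the log2 scale in epiblast, and their differences of 0.55 and -0.62 did not pass (edgeR adjusted p 0.80 and 0.41).

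**Figure D5:**
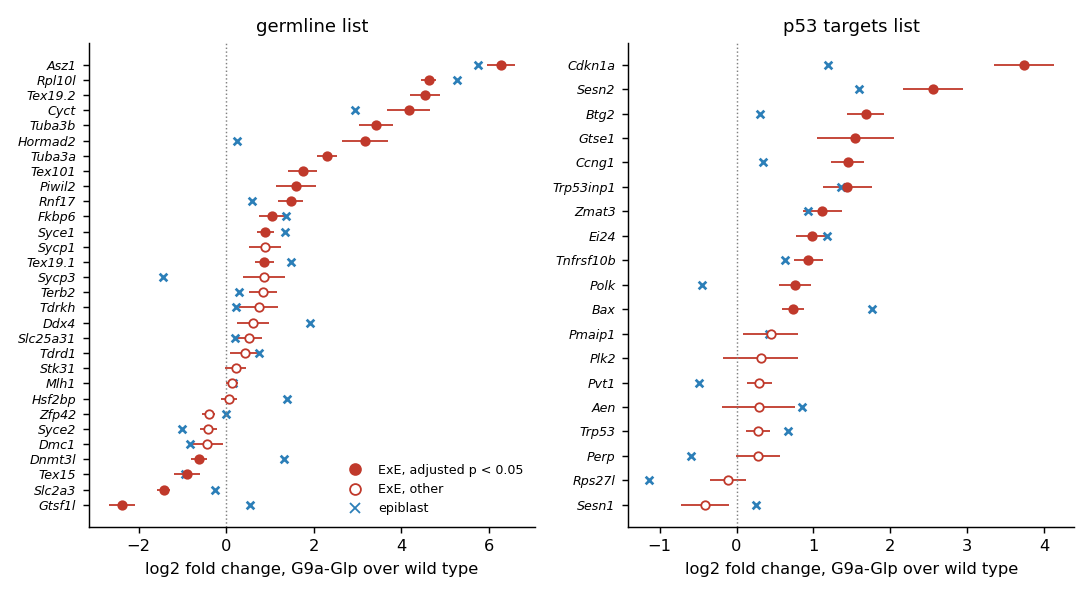
Log2 fold change of G9a-Glp over wild type for the tested genes of the germline and p53 lists, in ExE (circles with a bar of 1 SE, filled where the adjusted p is below 0.05) and in epiblast (crosses, where tested). Asz1 stands at 6.28 in ExE and 5.75 in epiblast, and Cdkn1a at 3.74 and 1.18.

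For the ratio of alleles, the difference between tissues passed for 24 of 7709 genes (0.311%), 19 of them toward the maternal allele in ExE (0.246%) and 5 toward the paternal (0.0649%). The 19 included Sfmbt2, Smoc1, Jade1, Gab1, 2400006E01Rik and Gm32885 (edgeR adjusted p 2.6e-09, 0.00027, 1.7e-12, 1.7e-08, 9.0e-06 and 0.012). In wild-type epiblast Jade1 and Gab1 were already read from both alleles, at 47.7% and 47.6% maternal, and in G9a-Glp epiblast they were at 47.4% and 59.3%. Slc38a4, by contrast, was paternal in wild-type epiblast (1.74% maternal, n = 7) and reached 30.6% in G9a-Glp epiblast (n = 6), close to its 29.9% in ExE, and its difference between tissues did not pass (edgeR adjusted p 0.88). Ascl2 moved toward the paternal allele more in ExE than in epiblast (difference -4.27, edgeR adjusted p 0.017).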

How the data were processed

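RNA-seq of single dissected tissues was analysed from a table of 30546 genes in 72 libraries. Per the submitters' processing notes, STAR 2.5.0, HTSeq and mm10 were used. Strand handling is not given in the sources used here, so overlapping genes can share reads. The deposited counts are, per the file headers, total reads over polymorphisms for each gene. The deposited allelic ratio is the CAST share of reads minus 0.5, rounded, and the deposited allelic score is a signed −log10 binomial p, listed as 0 under 10 reads.

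Parental reads were recovered from ratio and score. They matched 712029 of 712130 scored values (99.986%, tolerance 0.002). In 3519 values (0.319%) the score was at its limit and the rounded ratio set the reads, as for Gm32885, H19 and Phlda2. Sfmbt2 has read counts at which this can also occur. Expression was tested with edgeR 4.0.16 (R 4.3.3; quasi-likelihood, TMM, filterByExpr) on the 15 libraries, and the maternal to paternal ratio with edgeR on both allele columns with a term per library. P-values were adjusted by Benjamini-Hochberg over all genes tested, at 0.05. A share needs 10 reads in the library. On simulated data 63% of 2-fold and 96% of 4-fold expression changes were recovered over 8931 genes, and 53% and 96% of ratio changes over 8731.

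The comparison, gene lists and tests were chosen with earlier results of these data known. The named genes were Ehmt1 and Ehmt2; the 10 largest changes per direction with no overlap and at least 5 CPM in the higher group; up to 8 called genes per list; all called imprinted genes; and 8 other ratio changes per direction with no overlap. Other names, such as genes that did not pass, were chosen after their values were seen. Alternatives were DESeq2 1.42.0, limma 3.58.1, other scalings and filters, sex, all groups in 1 fit, the replicate block, and leaving libraries out. X-linked genes were left out of the tests, and the bisulfite library of this group was not analysed here.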

Additional observations from a re-analysis of the deposited data

Results flagged for a closer look

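Single embryos stood apart from the rest of their group in 34 of 227 groups of values tested. A rate of about 1 in 20 would hold only for independent groups of normal values. Some of these groups were 0 in all but 1 embryo, and overlapping genes were counted apart, so the 2 rates cannot be compared. G9a-Glp embryo 7 had reads on 18423 genes. Wild-type embryo 6 was the high value for C8b (0.333 CPM, 1 read), Cd59a (83.0 CPM), Dnmt3l (171 CPM), Trim28 (989 CPM), Dppa5a (48.7 CPM), Gab1 (380.1 CPM), Trp53inp1 (11 CPM) and Col4a2 (13.7 CPM). Wild-type embryo 8 was the high value for Wfdc15a (1.43 CPM), Gmeb2 (214 CPM) and Kdr (14.3 CPM), and wild-type embryo 2 for Prdm1 (3.23 CPM).

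Among G9a-Glp embryos, the high value was in embryo 2 for Trim28 (461 CPM) and Gab1 (541 CPM), in embryo 3 for Cdkn1a (262 CPM) and Btg2 (132 CPM), and in embryo 4 for Peg12 (4.95 CPM). It was in embryo 7 for Asz1 (308 CPM) and Kdr (6.71 CPM), and in embryo 9 for Cbx1 (120.1 CPM).

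Maternal shares that stood apart in wild type were those of Sfmbt2 (0.199%), Evc (38.5%), Gm3134 (10%) and LOC108167542 (10%) in embryo 2, Peg3 in embryo 3 (9.82%) and Gm13261 in embryo 4 (1.92%). Others were Phlda2 (93.0%) and LOC108167344 (54.8%) in embryo 6, and Ascl2 (97.6%), Gm32885 (7.00%) and Gm13157 (78.1%) in embryo 8. In G9a-Glp embryo 1, Gm13247 (48.1%) and the overlapping 1700095A21Rik (46.6%) were the low values.

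The effect on expression differed between ExE and epiblast past the edgeR threshold for 23 named genes, given as the ExE log2 effect minus the epiblast log2 effect. It was more positive in ExE for Gm32184 (9.03), Hc (6.94), Gm39794 (5.84), Wdr20rt (5.38), Wfdc15a (4.94), Afp (4.86), Cdkn1a (2.59), Btg2 (1.42), Ccng1 (1.14) and Dnmt3a (0.98). It was more negative for Nudt8 (-3.75), Ifi35 (-2.99), Gtsf1l (-2.89), Atp10a (-2.56), Dnmt3l (-1.94), Gab1 (-1.93), Utf1 (-1.85), Platr4 (-1.73), Ttpa (-1.72), Mest (-1.16), Slc2a3 (-1.14), Bax (-0.99) and Dnmt3b (-0.81).

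For the allelic ratio the same difference was 12.02 for Sfmbt2, 5.22 for Smoc1, 3.98 for Jade1, 3.60 for Gab1, 3.46 for 2400006E01Rik, 3.01 for 2410003L11Rik, 2.54 for Gm32885, 1.48 for Hopx, -2.46 for Evc and -4.27 for Ascl2. In X-linked genes, which the comparisons did not use, the paternal share of reads averaged 9.20% in 5 female G9a-Glp ExE and 5.75% in 3 female wild-type ExE.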

How the results depend on the processing

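The count of expression changes (1319) was 1988 under DESeq2, 2131 with all BDF1xCAST ExE groups in 1 fit and 2116 without the 4 libraries that stand apart, an alternative chosen after seeing the data; leaving out 1 embryo gave 963 (without G9a-Glp embryo 3) to 1903 (without G9a-Glp embryo 9). The 96 ratio changes became 39 with limma on log ratios, 34 of them shared, and 61 (without wild-type embryo 4) to 108 (without G9a-Glp embryo 9) when 1 embryo was left out. The 43 imprinted genes became 28 at a minimum of 50 reads. Leaving out 1 embryo gave silent-allele differences of 44.0 to 45.3 points (noncanonical) and 4.64 to 6.51 points (canonical). Some correlations over 8 embryos changed sign. For Ehmt1 and the noncanonical share r was 0.49 with the mean over genes and 0.23 without the 2 embryos farthest from the median. Under the same 2 changes r was 0.097 and 0.46 for Ehmt2 and the noncanonical share. For Ehmt2 and the canonical share it was 0.054 and 0.22. The sum of Ehmt1 and Ehmt2, a different measure, had r = 0.45 with the canonical share. For Ehmt1 and the canonical share the mean over genes gave r = 0.74 (exact permutation p 0.027). The causes were not tested. Of the named genes, 63 of 77 kept their expression call and 25 of 36 their ratio call in all alternatives run.

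With the embryo number as a replicate block, 1442 genes changed in expression (1019 shared) and 89 in ratio (65 shared). The 6 shared numbers do not pair the embryos: deviations of same-numbered embryos correlated at -0.23 to 0.34, and 2 of 6 matched best with their own number.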

Other observations

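In the 5 female G9a-Glp ExE the share of X-linked reads from the paternal X, which is silenced by imprinting in mouse trophoblast, was 5.60, 8.53, 13.3, 9.43 and 9.18% in embryos 1, 2, 7, 8 and 9, over 987 genes. In the 3 female wild-type ExE it was 5.36 to 6.36%. Of the 5, 4 lay above all wild-type females, and the exact two-sided permutation p was 0.071, where the smallest possible is 0.036. Males, which inherit no paternal X, gave at most 0.551%. Embryo 7, the highest, was also the library with reads on the most genes.

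Afp reads came mostly from the BDF1 allele. Of the G9a-Glp embryos, 1, 2, 4, 8 and 10 had 0 paternal reads, embryo 3 had 3 of 99, embryo 7 had 2 of 300 and embryo 9 had 20 of 219. In wild type, 1 of the 3 reads of embryo 2 was paternal and the other 6 embryos had 0.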
